A study of Mus musculus with 12 samples.

Results

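The genes described here are 10 targets of the hypoxia-inducible factors (HIF) that do not belong to glycolysis: Vegfa, Slc2a1, Car9, Ndrg1, Egln3, Adm, Ankrd37, P4ha1, Bnip3 and Car12. They were chosen by name, and all 10 were found among the 55536 genes of the count table. Total RNA depleted of ribosomal RNA was sequenced with a stranded Illumina kit in 11 mouse tumours and 1 skeletal muscle. The study sets 2 ways of making EWSR1-ATF1 tumours against each other, and the fusion of these genes defines clear cell sarcoma, a soft tissue sarcoma with melanocytic features in people. The translocation tumours (n = 5) carried HprtCre together with Ewsr1-loxP and Atf1-loxP, so that Cre made from the broadly expressed Hprt locus can join the mouse's own genes. The Rosa26 tumours (n = 6) carried Rosa26-LSL-EWSR1-ATF1, a fusion transgene in the Rosa26 locus that stays silent until Cre removes a stop cassette. The sources used here give neither the route of Cre in those mice nor ages or strains. The muscle was wild type. Every tumour was induced genetically, received no drug, and was snap frozen at morbidity from the primary tumour.

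In well-oxygenated cells, prolyl hydroxylases of the Egln family mark the HIF alpha subunits for destruction by the Vhl ubiquitin ligase. When oxygen is short the alpha subunits persist, pair with Arnt and bind short DNA motifs near target genes. The targets bring in blood vessels, carry glucose, handle acid and carbon dioxide, modify collagen and remove mitochondria, and some of them feed back on the oxygen sensor. In solid tumours these genes are widely used as markers of poorly perfused tissue, although oncogenic signalling and other transcription factors drive several of them as well.

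The core of the motif bound by HIF is ACGTG or GCGTG. Both were searched on both strands, where they read CACGT and CACGC, in RefSeq promoter windows on GRCm38.p6 that run from 250 bases before to 50 bases after a start site. Windows were present for 9 of the 10 genes, and 8 of these genes had a match in at least 1 window, Vegfa only in its inner one. That inner window ended outside every transcript of GENCODE M21, the annotation used here, while the other windows ended inside one. By window, 8 of the 10 windows of these genes held a match. Of all 32851 windows of the same length, 43.8% held a match, so a match is common and describes the letters only. The 4 stretches of 250 bases before the start site below show the range, with every match in capitals. Bnip3 (chr7:138909507-138909756, minus strand) had the most matches, 5, of which 2 overlap in the palindrome CACGTG. Ankrd37 (chr8:45999851-46000100, minus strand) had 4 matches, of which 2 overlap in CACGCGTG. That stretch lies inside the bounds of the annotated gene, chr8:45996902-46005707, and not upstream of them. Car9 (chr4:43506776-43507025, plus strand) had 1, which begins 18 bases before the start, and its relative Car12 (chr9:66713436-66713685, plus strand) had none.
Bnip3: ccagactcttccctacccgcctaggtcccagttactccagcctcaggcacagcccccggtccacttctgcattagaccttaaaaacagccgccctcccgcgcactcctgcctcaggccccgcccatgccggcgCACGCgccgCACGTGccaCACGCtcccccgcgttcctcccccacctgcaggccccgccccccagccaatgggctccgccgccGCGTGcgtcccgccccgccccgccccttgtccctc
Ankrd37: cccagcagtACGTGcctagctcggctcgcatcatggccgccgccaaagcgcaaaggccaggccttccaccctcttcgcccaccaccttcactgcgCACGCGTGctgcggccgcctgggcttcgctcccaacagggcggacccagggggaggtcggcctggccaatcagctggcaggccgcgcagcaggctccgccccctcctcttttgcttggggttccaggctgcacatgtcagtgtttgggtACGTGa
Car9: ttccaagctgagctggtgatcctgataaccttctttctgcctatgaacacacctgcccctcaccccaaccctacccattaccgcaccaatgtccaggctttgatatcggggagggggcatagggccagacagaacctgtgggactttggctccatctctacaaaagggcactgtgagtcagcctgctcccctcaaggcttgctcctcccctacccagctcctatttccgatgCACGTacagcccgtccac
Car12: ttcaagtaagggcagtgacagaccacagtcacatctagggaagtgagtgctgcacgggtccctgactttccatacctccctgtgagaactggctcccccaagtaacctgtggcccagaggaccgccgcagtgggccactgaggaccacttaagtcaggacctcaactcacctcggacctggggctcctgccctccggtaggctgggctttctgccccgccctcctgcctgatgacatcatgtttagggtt
Among the other windows, P4ha1 had 3 matches, Slc2a1 and Adm had 2 each and Egln3 had 1. The window at the outermost start of Vegfa had none, and that of a start further inside the gene had 2.

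Depth and purity differed between libraries. The 5 translocation libraries held 2.96 M to 21.2 M counts, the 6 Rosa26 libraries 6.82 M to 21.5 M and the muscle library 25.04 M. Ribosomal sequence was heavy in translocation tumour 2, where the genes that contain it drew 37.8% of counts, and in Rosa26 tumour 4, where they drew 30.0%; the remaining tumours lay between 1.34% and 7.38%, and the muscle at 0.758%. Markers of skeletal muscle reached 5.5% of the library of Rosa26 tumour 1 and 13.9% of the muscle library, but never more than 0.357% of another tumour. By Xist and Y-linked genes, translocation tumour 5 and Rosa26 tumours 2, 3, 5 and 6 read as male, so sex and genotype are partly confounded. The defining melanocyte marker Mlana had 0 counts in all 11 tumours, Tyr had 3 counts and Sox10 had 31. Mitf ran from 8.29 to 161 CPM (read counts scaled to library size) in tumours, on a scale over 12 libraries. The pigment enzyme gene Dct had 6454 counts in translocation tumour 5, 4 in the other translocation tumours together and 0 to 628 in each Rosa26 tumour. Summed markers of other cell types on a scale over 12 libraries, translocation then Rosa26, were 606 to 3464 and 942 to 2736 CPM for macrophages, 8.87 to 112 and 5.14 to 49.1 CPM for neutrophils, 5.62 to 33.3 and 28.3 to 433 CPM for keratinocytes, 10.8 to 84.3 and 10.9 to 494 CPM for adipocytes. The 8 melanocyte markers summed to 527 CPM in translocation tumour 5, to 48.5 to 99.9 CPM in the other translocation tumours and to 28.9 to 72.2 CPM in Rosa26 tumours. In the test between genotypes described below, 0 markers were called of 10 macrophage, 5 neutrophil, 3 adipocyte, 4 melanocyte and 15 skeletal muscle markers tested, and 2 of 5 keratinocyte markers, Sfn and Cdh1, were called lower. All 15 skeletal muscle markers had negative differences, and the part of these cell types in the levels below was not tested. Separate animals are not stated for the samples. The titles of translocation tumours 2 and 5 begin alike, as do those of Rosa26 tumours 5 and 6. The same holds for the muscle and translocation tumour 1. Translocation tumour 2 did not read as male, unlike translocation tumour 5. A p-value here thus reflects the spread among these samples, part of which may be technical. In bulk tissue, fewer cells of a type and less RNA per cell cannot be told apart.

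Between genotypes, Ndrg1 was the 1 gene of the 10 that passed the test. Its mean was 234 ± 102 CPM (SD, n = 5) in translocation tumours and 90.4 ± 27.5 CPM (SD, n = 6) in Rosa26 tumours. Differences are given as log2 fold changes of translocation over Rosa26 from the quasi-likelihood test of edgeR, and p-values were adjusted over all 17021 genes tested by the Benjamini-Hochberg method, and CPM values here are scaled by TMM within the 11 tumours. All 10 genes passed the filter on low counts. Among all genes tested, 1.14% were called higher and 1.56% lower in translocation tumours, 2.7% in all. The count over the 10 genes was thus 1 higher and 0 lower. The fitted difference was positive for 7 of the 10 and negative for Car9, Adm and Car12, with a median of 0.93 against 0.07 over all genes. With all tumours, the DESeq2 Wald test and limma voom called Ndrg1, Ankrd37 and Bnip3 higher, tests by which 5.76% and 7.41% of all genes were called higher. The Wald test gave an adjusted p for 9 of the 10 genes and none for Slc2a1. With sex as a covariate edgeR called Ndrg1 and Slc2a1 higher, together with 9.11% of all genes. Genes without overlap between the groups made up 2.44% of all genes on the higher side and 2.73% on the lower side, and Ndrg1 was the 1 gene of the 10 among them.

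**Figure D1:**
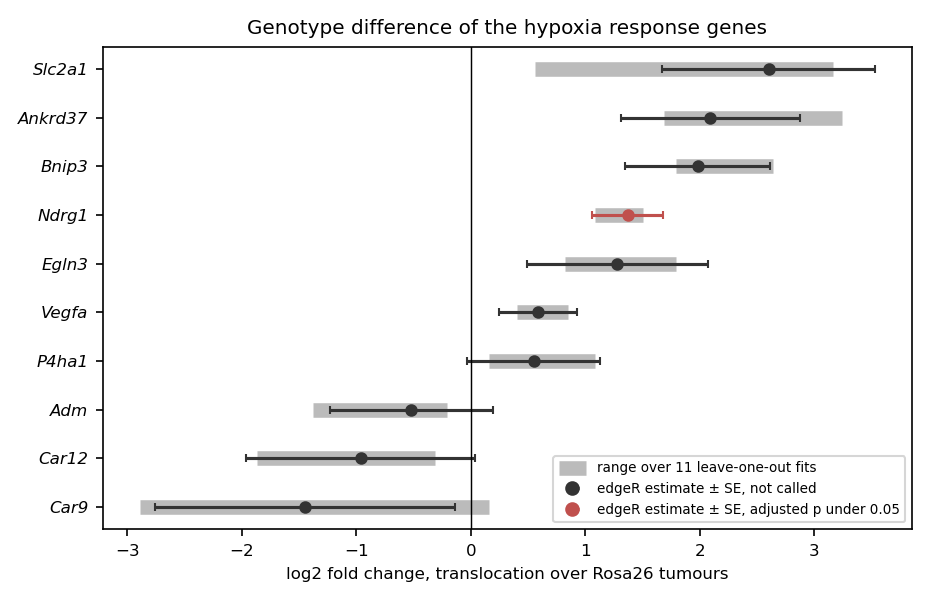
The log2 fold change of each of the 10 genes (horizontal axis, translocation over Rosa26 tumours) with its standard error. Ndrg1, at 1.37, is the gene past an adjusted p of 0.05, while the larger differences of Slc2a1, Ankrd37 and Bnip3 have wider errors.

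Ndrg1 (ENSMUSG00000005125, chr15:66929318-66969640, minus strand, on mm10 as for the other genes) encodes a cytoplasmic protein induced by stress and differentiation and is among the most regular targets of hypoxia in cultured cells. Its level was 203, 414, 198, 168 and 188 CPM in translocation tumours 1 to 5. Rosa26 tumours 1 to 6 had 72.0, 129, 61.6, 66.3, 106.8 and 106.96 CPM. The lowest translocation tumour lay above the highest Rosa26 tumour. The difference was 1.37 ± 0.31 (SE), with an adjusted p of 0.0429. The call depended on the samples: it held in 4 of the 11 fits that left out 1 tumour, with an adjusted p from 0.0342 to 0.123. It ended without translocation tumours 1 (adjusted p = 0.0743) or 3 (0.0503), and without Rosa26 tumours 1 (0.0648), 3 (0.123), 4 (0.0704), 5 (0.0861) or 6 (0.0933), while the difference stayed between 1.08 and 1.5. With translocation tumours 2 and 5 and Rosa26 tumour 4 all left out it was 0.99 with an adjusted p of 0.0708. With all tumours the call ended with no filter on low counts (adjusted p = 0.0667), with the muscle in the fit (0.0519), with Rosa26 tumours 5 and 6 summed (0.0861) and with skeletal muscle markers as a covariate (0.0653).

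The secreted products are Vegfa (ENSMUSG00000023951, chr17:46016993-46032369, minus strand), the main growth factor of blood vessels, and Adm (ENSMUSG00000030790, chr7:110627661-110629820, plus strand), the vasodilating peptide adrenomedullin. Vegfa stood at 221, 244, 402, 310 and 178 CPM in translocation tumours 1 to 5. Rosa26 tumours 1 to 6 had 153, 229, 99.5, 315, 125 and 161 CPM. The groups overlapped, and Vegfa was the steadiest of the 10 genes, its highest tumour 4.04-fold above its lowest. The difference of 0.59 ± 0.34 (SE) did not pass the test (adjusted p = 0.304). Adm was low in most tumours, at 19.3, 4.46, 1.24, 7.31 and 2.68 CPM in translocation tumours 1 to 5 and 6.48, 8.63, 7.99, 1.52, 19.8 and 15.6 CPM in Rosa26 tumours 1 to 6. Its highest values were nearly the same in both genotypes, and the difference of -0.52 ± 0.71 (SE) did not pass (adjusted p = 0.693).

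Of the 10 genes listed for receptors of the VEGF family and of Adm, all were tested. Of these, 0 were called higher and 1 was called lower, with a median difference of -0.05. The called gene was Flt4, a VEGF family receptor tyrosine kinase best known from lymphatic vessels and not a receptor of Vegfa or Adm. Its level ran from 1.34 to 8.74 CPM in translocation tumours and from 7.83 to 33.7 CPM in Rosa26 tumours, a difference of -2.51 ± 0.50 (SE) with an adjusted p of 0.0283. That call held in 7 of the 11 fits that left out 1 tumour. It ended without translocation tumour 1 (adjusted p = 0.0663) or Rosa26 tumours 3 (0.0844), 5 (0.0652) or 6 (0.0692). It also ended with Rosa26 tumours 5 and 6 summed (0.064), and with translocation tumours 2 and 5 and Rosa26 tumour 4 all left out (0.0644). Kdr, the main signalling receptor of Vegfa, leaned the other way without passing, at 136 to 803 CPM in translocation tumours and 73.7 to 229 CPM in Rosa26 tumours (difference 1.78 ± 0.50, adjusted p = 0.0686). Nrp2, a co-receptor, differed by -1.81 (adjusted p = 0.144), and Flt1, a decoy and signalling receptor, by -1.04 (adjusted p = 0.198). The summed level of 10 endothelial markers, on a scale over all 12 libraries, ran from 92.8 to 679 CPM in translocation tumours and from 267 to 499 CPM in Rosa26 tumours. Their medians were 620.5 and 312.9 CPM. Of those 10 markers 9 had negative differences, the median was -1.16, and none of the defining ones was at 0. The 1 called higher, Egfl7, weighed most in the sum of translocation tumours, at 41.0 to 639 CPM in translocation tumours and 33.4 to 113 CPM in Rosa26 tumours on that scale, and Erg was called lower at -2.93. The markers thus leaned the same way as Flt4 apart from Egfl7, and their part in the receptor levels was not tested.

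At the cell surface, Slc2a1 (ENSMUSG00000028645, chr4:119108711-119137983, plus strand) encodes the glucose transporter GLUT1. Car9 (ENSMUSG00000028463, chr4:43506966-43513729, plus strand) and Car12 (ENSMUSG00000032373, chr9:66713686-66766845, plus strand) encode membrane carbonic anhydrases that turn carbon dioxide into bicarbonate and acid outside the cell. Slc2a1 was at 56.0, 34.2, 9.27, 29.1 and 528 CPM in translocation tumours 1 to 5. It was at 13.9, 56.4, 6.80, 19.6, 14.3 and 19.0 CPM in Rosa26 tumours 1 to 6. One library, translocation tumour 5, held most of the difference in means: the fitted value was 2.60 ± 0.93 (SE, adjusted p = 0.118) with it and 0.56 without it. Slc2a12, another glucose transporter, was also concentrated there, at 151 CPM against at most 1.61 CPM in the other translocation tumours. Its fitted difference of 4.31 (adjusted p = 0.127) turned to -0.95 without that tumour. The same library held most of the Dct counts, the highest summed melanocyte markers and the highest Mitf of any tumour. On the scale within the 11 tumours its Mitf stood at 180.5 CPM. Pmel and S100b did not peak there. Pmel was at 0.927 CPM against 1.485 to 3.652 CPM in the other translocation tumours. S100b was at 76.6 CPM, below the 83.7 CPM of translocation tumour 2. The part of these markers in the Slc2a1, Slc2a12, Car13 and Pgk1 levels of that library was not tested.

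Car9 was at 4.73, 0.99, 6.05, 30.7 and 0.669 CPM in translocation tumours 1 to 5. In Rosa26 tumours 1 to 6 it was at 1.28, 105.3, 1.15, 4.00, 1.55 and 30.9 CPM. It had the widest spread of the genes with counts in every tumour, 157-fold from the lowest to the highest, and each genotype held tumours near 1 CPM and tumours at 30 CPM or more. The difference of -1.45 ± 1.31 (SE, adjusted p = 0.528) turned to 0.16 without Rosa26 tumour 2. Car12 was at 0.107, 0, 3.36, 2.08 and 8.45 CPM in translocation tumours 1 to 5 and 0.979, 9.74, 3.18, 1.33, 2.81 and 16.0 CPM in Rosa26 tumours 1 to 6. Car12 was not detected in translocation tumour 2, where a count of 0 allows up to 1.3 CPM on the 12-library scale at this depth. Its difference of -0.96 ± 1.0 (SE) did not pass (adjusted p = 0.591).

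Across the carbonic anhydrase family, 11 of 16 genes were tested, with 0 called in either direction, 5 differences above 0 and 6 below, and a median of -0.79. Car13, a cytosolic enzyme, came nearest to the threshold at 4.23 ± 1.04 (SE, adjusted p = 0.0505). Translocation tumour 5 alone had 274 CPM of Car13, against 3.47 to 13.7 CPM in the other translocation tumours and 2.26 to 4.65 CPM in Rosa26 tumours, and the difference without it was 1.42. Car15 (-2.95, adjusted p = 0.0791), Car2 (2.48, adjusted p = 0.0974) and Car4 (2.66, adjusted p = 0.174) followed. Per kilobase of exon, Car9 made up 0.212% to 9.94% of the family's level in translocation tumours and 0.119% to 63.2% in Rosa26 tumours, and Car12 at most 4.1% in any tumour.

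P4ha1 (ENSMUSG00000019916, chr10:59323296-59373304, plus strand) encodes the catalytic alpha subunit of collagen prolyl 4-hydroxylase, which prepares collagen for its triple helix. It stood at 183, 621, 112, 435 and 182 CPM in translocation tumours 1 to 5. Values of 86.1, 536, 134, 76.4, 210 and 214 CPM were found in Rosa26 tumours 1 to 6. The ranges largely coincided, and the difference of 0.55 ± 0.58 (SE) did not pass (adjusted p = 0.591). The summed level of 8 fibroblast markers, the collagen gene Col1a1 among them, ran from 877 to 44472 CPM in translocation tumours and from 7926 to 100976 CPM in Rosa26 tumours on the 12-library scale. None of those 8 markers was called, and their part in P4ha1 was not tested.

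Bnip3 (ENSMUSG00000078566, chr7:138890836-138909519, minus strand) encodes a mitochondrial outer membrane protein that marks mitochondria for removal. It was at 284, 174, 104.9, 125 and 275 CPM in translocation tumours 1 to 5. It was at 66.1, 138, 18.2, 8.20, 18.7 and 42.7 CPM in Rosa26 tumours 1 to 6. Rosa26 tumour 2 was the 1 Rosa26 library inside the translocation range, and the difference was 1.98 ± 0.63 (SE, adjusted p = 0.0907). Without Rosa26 tumour 2 it passed the test at an adjusted p of 0.0423, and 1.47% of all genes were called higher in that fit. That was the 1 call for Bnip3 among the 11 edgeR fits that left out 1 tumour, with an adjusted p from 0.0423 to 0.183. Bnip3l, its close relative with the same function, differed by 1.15 ± 0.36 (SE, adjusted p = 0.084). Bnip3 made up 63.6% to 77.4% of the summed level of both genes per kilobase in translocation tumours and 31.7% to 69.4% in Rosa26 tumours.

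Ankrd37 (ENSMUSG00000050914, chr8:45996902-46005707, minus strand) encodes a small ankyrin repeat protein and is used in hypoxia signatures. It was at 26.9, 15.3, 3.71, 11.2 and 12.1 CPM in translocation tumours 1 to 5. In Rosa26 tumours 1 to 6 it was at 2.45, 12.2, 0.618, 1.33, 0.734 and 2.15 CPM. All but 1 of the Rosa26 tumours lay below every translocation tumour, the exception again being Rosa26 tumour 2. The difference of 2.09 ± 0.78 (SE) did not pass with all tumours (adjusted p = 0.132) and passed without Rosa26 tumour 2 (3.24, adjusted p = 0.0316). That was the 1 call for Ankrd37 among the 11 edgeR fits that left out 1 tumour, with an adjusted p from 0.0316 to 0.242. Ankrd37 overlaps Ufsp2 on the opposite strand, which had 5904 counts over the tumours against 1062 for Ankrd37. That overlap is short, from 45996902 to 45996958 at the edge of Ankrd37. Lrp2bp, also on the opposite strand, shares a longer stretch from 45999303 on and had 92 counts. The sources used here do not say whether counting used strand, and reads of the shared stretches cannot be told apart.

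Egln3 (ENSMUSG00000035105, chr12:54178981-54203860, minus strand) encodes a prolyl hydroxylase that is both a HIF target and part of the machinery that destroys HIF. It was at 68.6, 49.0, 2.69, 30.9 and 15.2 CPM in translocation tumours 1 to 5. In Rosa26 tumours 1 to 6 it was at 11.3, 34.3, 8.70, 5.34, 1.51 and 20.8 CPM. The groups overlapped, and the difference of 1.28 ± 0.79 (SE) did not pass (adjusted p = 0.334). Of the HIF subunits and oxygen sensors, 9 of 10 were tested, 0 were called higher and 1 lower, with a median difference of -0.18. Epas1, an alpha subunit also named HIF-2 alpha, ran from 4.38 to 80.8 CPM in translocation tumours and from 41.2 to 126 CPM in Rosa26 tumours, a difference of -0.78 (adjusted p = 0.426). Hif1a, the other main alpha subunit, differed by 0.39 (adjusted p = 0.581) and Egln1, the main oxygen sensor, by 0.39 (adjusted p = 0.381). Hif1an, which blocks the transactivating end of HIF, differed by -0.98 (adjusted p = 0.145).

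The called gene was Cited2, itself a HIF target, whose product competes with HIF for the coactivators CBP and p300. Cited2 stood at 7.95, 6.44, 11.9, 5.96 and 8.39 CPM in translocation tumours 1 to 5. Across Rosa26 tumours 1 to 6 it stood at 39.5, 91.5, 82.6, 31.4, 55.5 and 76.6 CPM. The groups were well apart, with a difference of -2.94 ± 0.35 (SE, adjusted p = 0.00662), and the call held in all 11 fits that left out 1 tumour (adjusted p at most 0.0211). Cited2 also responds to signals other than oxygen.

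**Figure D2:**
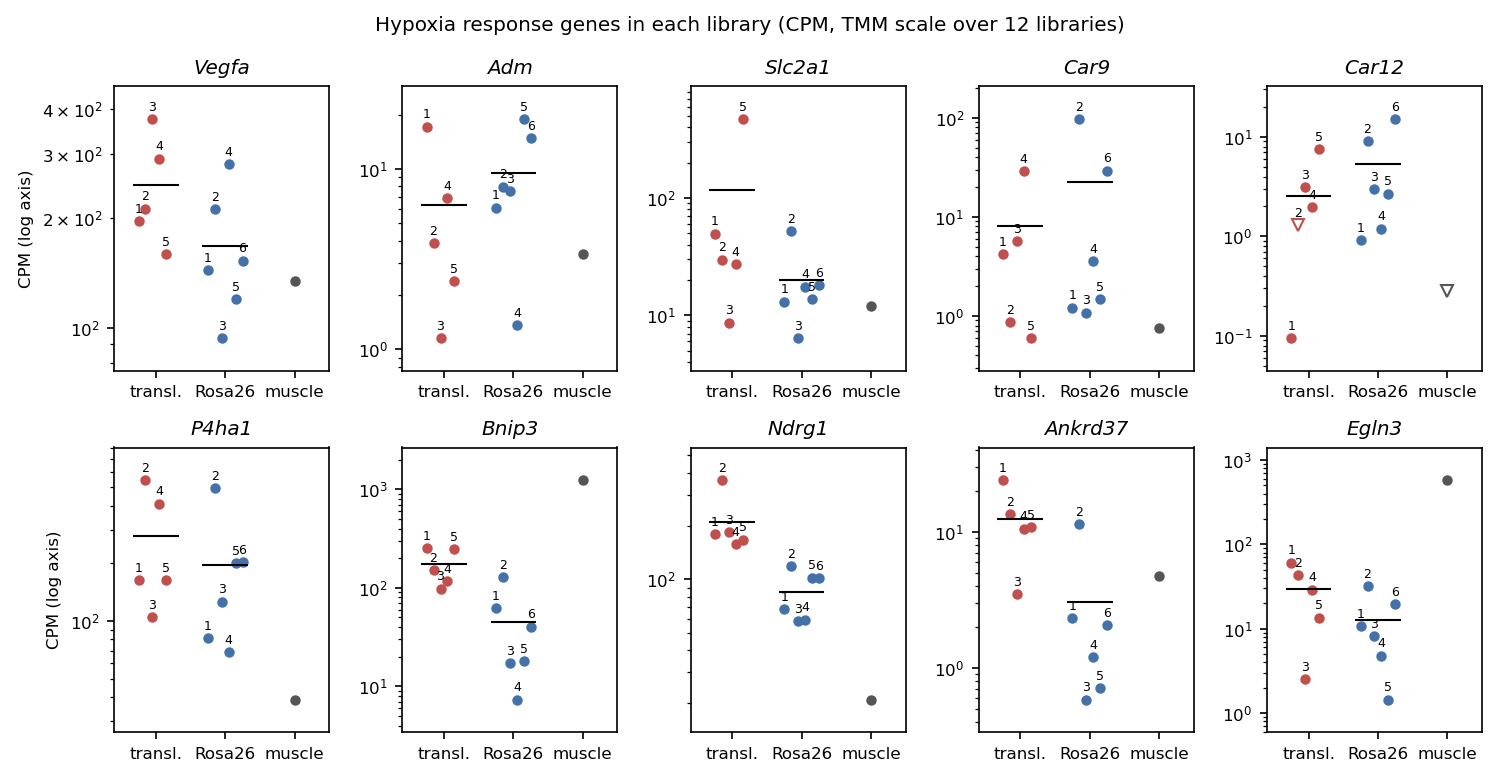
CPM (log axis) of the 10 genes in each library on a TMM scale over 12 libraries, by group. Ndrg1 separates the 2 tumour genotypes, while Car9, Adm, Vegfa, P4ha1 and Car12 overlap widely and the single muscle library is highest for Bnip3 and Egln3.

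Within a genotype the genes did not follow 1 common order of tumours, but some tumours ranked high or low for many of them. Rosa26 tumour 2 was the highest of the 6 Rosa26 tumours for 7 genes (Slc2a1, Car9, Ndrg1, Egln3, Ankrd37, P4ha1 and Bnip3), with a mean rank of 1.4. Rosa26 tumour 3 was the lowest for 5 genes, and Rosa26 tumour 4 was the lowest for Adm, P4ha1 and Bnip3 but the highest for Vegfa. Among translocation tumours, number 1 was the highest for Egln3, Adm, Ankrd37 and Bnip3. Number 3 was the lowest for 6 genes while it was the highest for Vegfa. Number 5, highest for Slc2a1 and Car12, was the lowest for Vegfa and Car9. The mean over the 10 genes of each gene's standardised log2 CPM was 0.51, 0.38, -0.18, 0.58 and 0.36 in translocation tumours 1 to 5. It was -0.53, 0.76, -0.8, -0.71, -0.55 and 0.17 in Rosa26 tumours 1 to 6. The highest tumour by this mean was thus a Rosa26 tumour, and the genotypes overlapped.

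**Figure D3:**
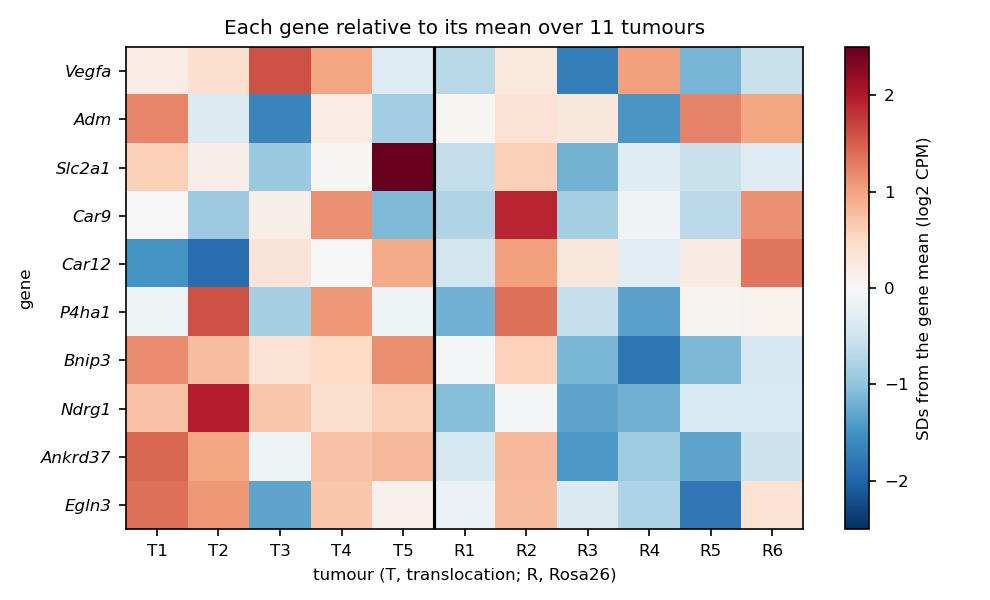
Standardised log2 CPM of each gene (rows) in the 11 tumours (columns, T for translocation and R for Rosa26), each gene centred on its mean and divided by its SD over the tumours. R2 is warm for most genes and R3 and R4 are cool, and T5 holds the highest value for Slc2a1.

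Other genes of the hypoxia response were read from lists. Of 25 further HIF targets outside glycolysis, all were tested, 2 were called higher and 0 lower, 19 differences were above 0, and the median was 0.66 against 0.07 over all genes. Ddit4, an inhibitor of mTOR complex 1 also named REDD1, ran from 68.3 to 311 CPM in translocation tumours and from 13.7 to 57.5 CPM in Rosa26 tumours. Its groups did not overlap, with a difference of 2.42 ± 0.46 (SE, adjusted p = 0.0237). The Ddit4 call ended without translocation tumour 1 (adjusted p = 0.0551) or Rosa26 tumours 3 (0.0795), 5 (0.0588) or 6 (0.0692). It also ended with Rosa26 tumours 5 and 6 summed (0.064), and with translocation tumours 2 and 5 and Rosa26 tumour 4 all left out (0.0553). Hmox1, the heme-degrading enzyme, was called higher at 3.49 ± 0.84 (SE, adjusted p = 0.0498). Translocation tumour 1 had 856 CPM of Hmox1, the other translocation tumours 29.9 to 67.8 CPM and the Rosa26 tumours 12.1 to 30.4 CPM. Without translocation tumour 1 the difference was 1.45 (adjusted p = 0.069), and the call also ended without Rosa26 tumours 1 (0.075), 2 (0.0722), 3 (0.124), 4 (0.0884), 5 (0.0945) or 6 (0.118) and with DESeq2 size factors (0.0501). It ended too with no filter on low counts (0.0901), the muscle in the fit (0.0583) and Rosa26 tumours 5 and 6 summed (0.104). The covariates for sex (0.081) and muscle markers (0.074) ended it as well. So did leaving out translocation tumours 2 and 5 and Rosa26 tumour 4 together (0.0659). Translocation tumour 1 also had the highest summed level of 8 erythroid markers, 11298 CPM on the 12-library scale against 152 to 454 CPM in the other translocation tumours and 3.41 to 1001 CPM in Rosa26 tumours. Of the 7 erythroid markers tested 0 were called, all 7 differences were above 0, and their part in the Hmox1 level was not tested.

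Edn1, the vasoconstrictor endothelin 1, lay just outside the threshold in the other direction at -3.48 ± 0.86 (SE, adjusted p = 0.0515). Kdm3a, a histone demethylase, lay just outside it at 1.05 ± 0.27 (SE, adjusted p = 0.057). Of 14 glycolytic targets, all were tested and 0 were called, with 12 differences above 0, 2 below and a median of 0.71. The smallest adjusted p-values belonged to Pgk1 (difference 1.54, adjusted p = 0.0969), Pgam1 (1.39, 0.128), Gpi1 (0.93, 0.157) and Ldha (1.09, 0.169). Pgk1 was at 528 CPM in translocation tumour 5 and at 124 to 145 CPM in the other translocation tumours, against 29.7 to 165 CPM in Rosa26 tumours. Of 17 paralogs of the 10 genes, 16 were tested and 0 were called, with 10 differences above 0 and a median of 0.42. Besides Bnip3l and Slc2a12, the smallest adjusted p-values were those of P4ha2, a second catalytic subunit of the collagen hydroxylase (1.29, adjusted p = 0.141), and Ndrg3 (-0.65, adjusted p = 0.156).

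**Figure D4:**
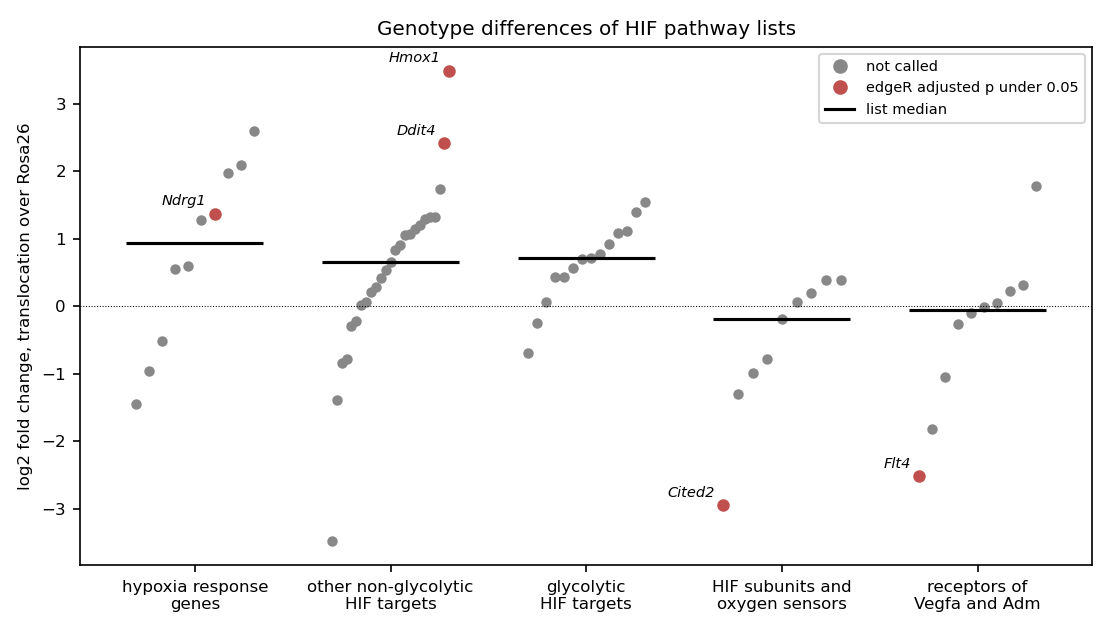
The log2 fold change of every tested gene in each list (vertical axis, translocation over Rosa26 tumours). Differences spread on both sides of 0 in each list, with medians of 0.93 for the 10 genes, 0.66 for the other targets, 0.71 for the glycolytic targets and -0.18 for the HIF subunits and sensors.

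Beside the muscle there is no test, since it is 1 library, and values in this and the next paragraph are on a TMM scale over 12 libraries. A gene was called where every tumour of a group lay on the same side of the muscle and the group mean was at least 2-fold away. By that rule 24.7% of genes were higher and 23.3% lower in translocation tumours, and 35.4% were higher and 27.6% lower in Rosa26 tumours. Of the 10 genes, 2 were higher and 2 lower in translocation tumours, and 4 were higher and 2 lower in Rosa26 tumours. Ndrg1 was at 21.0 CPM in muscle, and its mean was 10.02-fold higher in translocation tumours and 4.03-fold higher in Rosa26 tumours. P4ha1, at 38.8 CPM in muscle, was 7.11-fold and 5.04-fold higher. Car9 had 0.754 CPM in muscle and averaged 29.6-fold more in Rosa26 tumours, and Car12, with a count of 0 in muscle, was at least 18.9-fold higher there against a floor of 3 counts in the muscle library. Both means rest on few tumours: without Rosa26 tumour 2 Car9 was 9.72-fold above the muscle, and without Rosa26 tumour 6 Car12 was at least 11.9-fold above it. Vegfa was called in neither group, its mean 1.84-fold and 1.24-fold above the muscle, at 135 CPM in muscle, 247 ± 86.8 CPM (SD, n = 5) in translocation tumours and 167 ± 68.7 CPM (SD, n = 6) in Rosa26 tumours.

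Bnip3 and Egln3 went the other way. Bnip3 was at 1234 CPM in muscle, 7.13-fold above the mean of translocation tumours and 27.1-fold above that of Rosa26 tumours, a mean of 45.5 CPM that became 29.0 CPM without Rosa26 tumour 2. Egln3 was at 575 CPM in muscle, 19.3-fold and 45.1-fold above the tumour means. Rosa26 tumour 1 carried 46227 CPM of summed skeletal muscle markers against 327113 CPM in the muscle, and had 62.3 CPM of Bnip3 and 10.7 CPM of Egln3. With plain CPM and no scaling factor, 6 of the 10 genes were higher than muscle in translocation tumours instead of 2, and 47.9% of all genes instead of 24.7%, since scaling multiplied the muscle values by 2.36 and the tumour values by 0.803 to 1.28.

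Per kilobase of exon on the same scale, Bnip3, P4ha1 and Vegfa were the most abundant of the 10 genes in translocation tumours, at 76.4 ± 31.7, 67.1 ± 46.1 and 57.7 ± 20.3 CPM per kilobase (SD, n = 5). Slc2a1 and Ndrg1 followed at 33.5 ± 56.6 and 31.9 ± 12.9, then Egln3 (11.2), Ankrd37 (8.06), Adm (3.89), Car9 (3.49) and Car12 (0.335). In Rosa26 tumours the order was P4ha1 at 47.6 ± 38.3, Vegfa at 39.1 ± 16.0, Bnip3 at 20.1 ± 19.8 and Ndrg1 at 12.8 ± 3.96 CPM per kilobase (SD, n = 6), then Car9 (9.69), Adm (5.85), Slc2a1 (5.75), Egln3 (4.79), Ankrd37 (1.96) and Car12 (0.702). Single libraries set some of these places. In translocation tumours Slc2a1 averaged 8.23 without tumour 5, Adm 2.21 without tumour 1, Car9 1.23 without tumour 4 and Car12 0.171 without tumour 5. In Rosa26 tumours Bnip3 averaged 12.8, Car9 3.18 and Ankrd37 0.887 without tumour 2, and Car12 0.443 without tumour 6. Neighbours in both orders had overlapping ranges, except that Ndrg1 (24.0 to 54.8) lay above Egln3 (0.945 to 22.9) in every translocation tumour. In muscle, Bnip3 (545) and Egln3 (216) stood far above Vegfa (31.4) and the rest.

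The share of a gene within its family, per kilobase, also differed between tumours and the muscle library. Vegfa made up 71.2% to 95.2% of the level of the VEGF ligands in translocation tumours, 77.6% to 93.1% in Rosa26 tumours and 41.0% in muscle. Ndrg1 made up 47.1% to 62.3% of the Ndrg family in translocation tumours, 21.0% to 43.4% in Rosa26 tumours 2 to 6 and 0.282% in muscle, where Ndrg2 held 99.0%. In Rosa26 tumour 1, the tumour with 5.5% of its counts on muscle markers, the share was 8.84%. The shares of Ndrg1 did not overlap between the genotypes, as its levels had not. Slc2a1 made up 21.3% to 83.3% of the listed glucose transporters in translocation tumours, 17.5% to 84.5% in Rosa26 tumours and 1.78% in muscle, where the insulin-responsive Slc2a4 held 96.8%. Egln3 held 4.5% to 45.5% of the Egln family in translocation tumours, 2.45% to 33.1% in Rosa26 tumours and 57.0% in muscle.

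The genes whose pattern over the 11 tumours was most like the mean of the 10 standardised genes were taken from 11677 others with a mean of at least 5 CPM. By Spearman's rho they were Cd63 (0.9), a tetraspanin of late endosomes, Saysd1 (0.88), Dpm3 (0.87), a subunit of dolichol-phosphate mannose synthase, Higd1a (0.87), a mitochondrial protein induced by hypoxia, and Mrpl28 (0.87), a mitochondrial ribosomal protein. Pearson's r was 0.84, 0.93, 0.87, 0.95 and 0.72 in the same order. All genes were compared over the same 11 libraries, which differ in depth and genotype, so these values describe likeness only. Higd1a was the 1 of the 5 on a list of HIF targets; it was at 58.0, 55.4, 19.5, 63.9 and 72.2 CPM in translocation tumours 1 to 5 and 17.5, 58.2, 10.02, 8.39, 9.86 and 25.2 CPM in Rosa26 tumours 1 to 6. Its low translocation tumour was number 3 and its high Rosa26 tumour was number 2, as for most of the 10 genes. Higd1a was picked for its likeness to these genes, so that match is not a separate result.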

How the data were processed

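RNA was measured in 11 mouse tumours and 1 muscle. The deposited table holds whole-number read counts per Ensembl gene, not normalized, for 55536 genes in 12 libraries. Per the submitters' processing notes the build was mm10 and the tools included STAR 2.7.5a, cutadapt, RSEM, featureCounts and DESeq2, with no role or order. Strand use in counting is not given in the sources used here. GENCODE M21, of the same build, gave symbols, positions and exon lengths for all 55536 identifiers. Groups followed the genotype labels.

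The 11 tumours were fitted with edgeR 4.0.16 (R 4.3.3), using TMM factors, a filterByExpr minimum count of 10, robust quasi-likelihood fits and Benjamini-Hochberg adjustment at 0.05 over 17021 genes. Muscle was left out of that fit. In counts simulated for this comparison (16903 genes in the fit), 89 of 100 genes changed by 2 on the log2 scale were recovered and 100 of 100 changed by 3, with 13 false calls. Every simulated gene had the same spread between tumours relative to its mean. Recovery among more variable genes, such as Slc2a1 at 131.3 ± 222.5 CPM (SD, n = 5) in translocation tumours, was not simulated. Beside muscle, genes at or above 1 CPM on either side were compared, and the floor for a count of 0 is 3 counts, which covers counting error alone. Xist and Y-linked genes gave the sex. Standardised values used log2 CPM with a prior count of 2.

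All 10 genes were named, and of each further list up to 4 tested genes with the smallest adjusted p, plus any called. Hif1a was named outside this rule, after its values were seen. Of the marker lists, genes called or of very uneven level are named, and several melanocyte markers besides. The genes and lists were chosen with earlier results of these data known. The lists were HIF subunits and sensors, other HIF targets, glycolytic targets, carbonic anhydrases, paralogs, receptors, and markers of endothelium, macrophages, neutrophils, erythroid cells, skeletal muscle, keratinocytes, adipocytes, fibroblasts and melanocytes. The last group of lists is given by summed levels. Alternatives were DESeq2 1.42.0 size factors and its Wald test, limma 3.58.1 voom with quality weights, other filters, muscle in the fit, summed libraries with like titles, covariates for sex and muscle markers, and tumours left out.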

Additional observations from a re-analysis of the deposited data

Results flagged for a closer look

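Within each genotype the highest or lowest library was compared with the rest for each of the 10 genes, 20 groups in all, by the ratio of its gap to the range. The critical values used flag about 1 group in 20 by chance when values are normally distributed. CPM is not, since high values are far more spread than low ones, and all 7 values set apart on this scale were the highest of their group. On log2 CPM, a scale chosen after seeing the data, 1 of the 20 groups had a value set apart, Ndrg1 in translocation tumour 2. Rosa26 tumour 2 accounts for 4 of them: Slc2a1 at 56.4 CPM (other Rosa26 tumours 6.80 to 19.6), Car9 at 105.3 CPM (others 1.15 to 30.9), Ankrd37 at 12.2 CPM (others 0.618 to 2.45) and P4ha1 at 536 CPM (others 76.4 to 214). These 4 values come from 1 library and are not independent of each other. Slc2a1 at 528 CPM set translocation tumour 5 apart from the others at 9.27 to 56.0. Car9 at 30.7 CPM set translocation tumour 4 apart from the others at 0.669 to 6.05. Ndrg1 at 414 CPM set translocation tumour 2 apart from the others at 168 to 203; that library was the shallowest, with 2.96 M counts, and 37.8% of its counts fell on genes with ribosomal sequence. The part of depth in that value was not tested, and the Ndrg1 call held without that library (adjusted p = 0.0486 in edgeR).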

How the results depend on the processing

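The number of the 10 genes called higher in translocation tumours, 1, became 3 (Ndrg1, Ankrd37 and Bnip3) with the DESeq2 Wald test, which gave Slc2a1 no adjusted p, and with limma voom, and 2 (Slc2a1 and Ndrg1) with sex as a covariate. It became 0 with no low-count filter, with muscle kept in the fit, with Rosa26 tumours 5 and 6 summed, with skeletal muscle markers as a covariate, and with the libraries of translocation tumours 2 and 5 and of Rosa26 tumour 4 all left out. It ran from 0 to 3 with each tumour left out. None of the 10 was called lower under any of these. The number of all genes called, 460, became 2537 with the Wald test, 2677 with voom, 2534 with the sex covariate, 296 with the muscle marker covariate, 91 with Rosa26 tumours 5 and 6 summed and 815 with translocation tumours 2 and 5 summed, and ran from 63 to 744 with each tumour left out. The difference of Car9 became 0.57 with voom, 0.66 with the sex covariate and 0.16 without Rosa26 tumour 2, the range with each tumour left out being -2.89 to 0.16. With the sex covariate Adm became 0.02 and Car12 became 0.3. Slc2a12 became -0.72 with voom, -0.84 without translocation tumours 2 and 5 and Rosa26 tumour 4, and -0.95 without translocation tumour 5 (range -0.95 to 5.23), and Car4 became -0.25 without translocation tumour 4 (range -0.25 to 3.41). Beside muscle, the number of genes higher in translocation tumours, 2, became 6 with no scaling factor, an alternative chosen after seeing the data, and ran from 2 to 4 with each tumour left out. Ankrd37 in Rosa26 tumours over muscle, a log2 ratio of -0.64, became 0.69 with no scaling factor. Apart from the constructions named, the cause was not tested. Over the 10 genes' differences, 195 alternative values kept direction and side of the threshold, 7 gained a call, 12 lost one and 5 turned. Depth leaves Car12 at 278 counts over the translocation tumours and 583 over the Rosa26 tumours. No paired analysis was possible because the titles carry no replicate number shared between the genotypes.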
